A study of Mus musculus with 9 samples.

Results

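The lipins and the other enzymes that esterify fatty acids into triglyceride were read in mouse liver as 10 genes: Lpin1, Lpin2, Lpin3, Dgat1, Dgat2, Gpam, Agpat2, Agpat3, Mogat1 and Mogat2. They were taken by name from the 19938 genes measured, each with 1 probe set on the array, and all 10 were measured. The livers came from 9 mice, 3 per group and 1 array per mouse, and every mouse had eaten a diet with 45% fat without restriction for 5 weeks, from 10 weeks of age. The groups were wild-type C57BL/6J mice, mice with the Clock-D19 mutation, and rescue mice, which carried the same mutation and received 35 µg of an expression plasmid for wild-type Clock in the pLIVE vector by hydrodynamic injection into the tail vein in week 10. All livers were taken at zeitgeber hour 10, under 12 h of light and 12 h of dark. The labels name no control injection for the other groups, and they give neither the zygosity nor the background strain of the mutants. Hydrodynamic injection is known to deliver DNA mainly to hepatocytes; where the plasmid was expressed in these mice was not measured here. Since 1 hour of the day was sampled, a change of level and a change of phase cannot be told apart.

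Triglyceride is built stepwise on glycerol 3-phosphate. Acyltransferases of the GPAT and AGPAT families add the fatty acids that turn it into phosphatidate, lipins remove the phosphate to give diacylglycerol, and DGAT enzymes add the last fatty acid; MOGAT enzymes reach diacylglycerol from monoacylglycerol instead. In liver these steps decide how much fatty acid is stored or exported as lipid and how much is left for oxidation, and several of the enzymes are known to be under hormonal and circadian control. CLOCK, paired with BMAL1, activates genes through E-box sequences, and the Clock-D19 protein still pairs with BMAL1 but activates poorly.

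The arrays were alike as a whole, with medians over genes of 6.12 to 6.27 on the log2 scale and a lowest Pearson correlation between any pair of arrays, across genes, of 0.976. Hepatocyte markers were at high levels in all groups (Alb at a mean log2 level of 13.07 in wild type, 13.07 in mutant and 13.13 in rescue). For Clock, the mutant minus wild type difference was 0.94 ± 0.26 (SE) with an adjusted p of 0.0266 from limma, a call lost with a trended and robust prior (0.139) and without Clock mutant replicate 1 (0.108) or 3 (0.0715) or wild type replicate 2 (0.0864) or 3 (0.103). For Clock, rescue minus mutant was -0.66 ± 0.26 (adjusted p = 0.168), and it was called with the replicate block (0.0158) and with array weights (-0.82, 0.0454). Whether the probe set tells the mutant, the plasmid and the normal transcript apart was not examined, so its values are not used to check the labels. The 1027 olfactory receptor genes, which liver should not express, had a 95th percentile of 5.74 to 6.04 over the arrays, and this is used below as a mark of dim probe sets. The number of arrays limits the precision, and the p-values measure the spread between these 9 animals.

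Lpin1 was the member that differed most from wild type. It encodes lipin 1, a phosphatidate phosphatase that also enters the nucleus and works there as a coactivator with PPARA and PGC-1α. On the log2 scale Lpin1 read 8.79, 9.03 and 9.11 in the wild-type mice, 7.88, 8.02 and 7.76 in the mutants and 7.93, 7.53 and 7.68 in the rescue mice. All 6 arrays that carry the mutation lay below all 3 wild-type arrays, and the mutant and rescue values overlapped. In mutant liver Lpin1 fell by 1.09 ± 0.13 on the log2 scale, a 2.13-fold lower level (95% confidence interval -1.36 to -0.82, limma adjusted p = 1.19e-04, n = 3 per group). Rescue minus mutant was -0.17 ± 0.13 (interval -0.44 to 0.10, adjusted p = 0.461), and rescue minus wild type was -1.26 ± 0.13, a 2.4-fold lower level (interval -1.53 to -0.99, adjusted p = 1.12e-04). Those comparisons share arrays, so they are set side by side and not counted as separate evidence. The interval for rescue minus mutant reaches no further up than 0.10.

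Lpin2, the lipin whose protein is prominent in liver and whose loss in humans causes Majeed syndrome, was also lower. Its log2 level was 10.86, 10.68 and 10.73 in wild type, 10.38, 10.10 and 10.27 in mutant, and 10.43, 10.16 and 10.41 in rescue, so that wild type stood above both other groups on every array. The fall in mutant liver was 0.51 ± 0.11, or 1.42-fold (interval -0.75 to -0.26, limma adjusted p = 0.00821, n = 3 per group). Rescue minus mutant was 0.08 ± 0.11 (interval -0.16 to 0.33, adjusted p = 0.719) and rescue minus wild type was -0.43 ± 0.11 (interval -0.67 to -0.18, adjusted p = 0.068), the last being called in 3 of 19 alternative analyses (0.0202 with a trended and robust prior). The third lipin gene, Lpin3, read 5.60, 5.36 and 5.69 in wild type, 5.60, 5.86 and 5.69 in mutant and 5.31, 5.64 and 5.66 in rescue. These values lie within the range of the olfactory receptor genes and overlap between all groups. Lpin3 differed by 0.17 ± 0.13 between mutant and wild type (interval -0.10 to 0.44, adjusted p = 0.386), and at so dim a level a difference may be compressed.

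**Figure D1:**
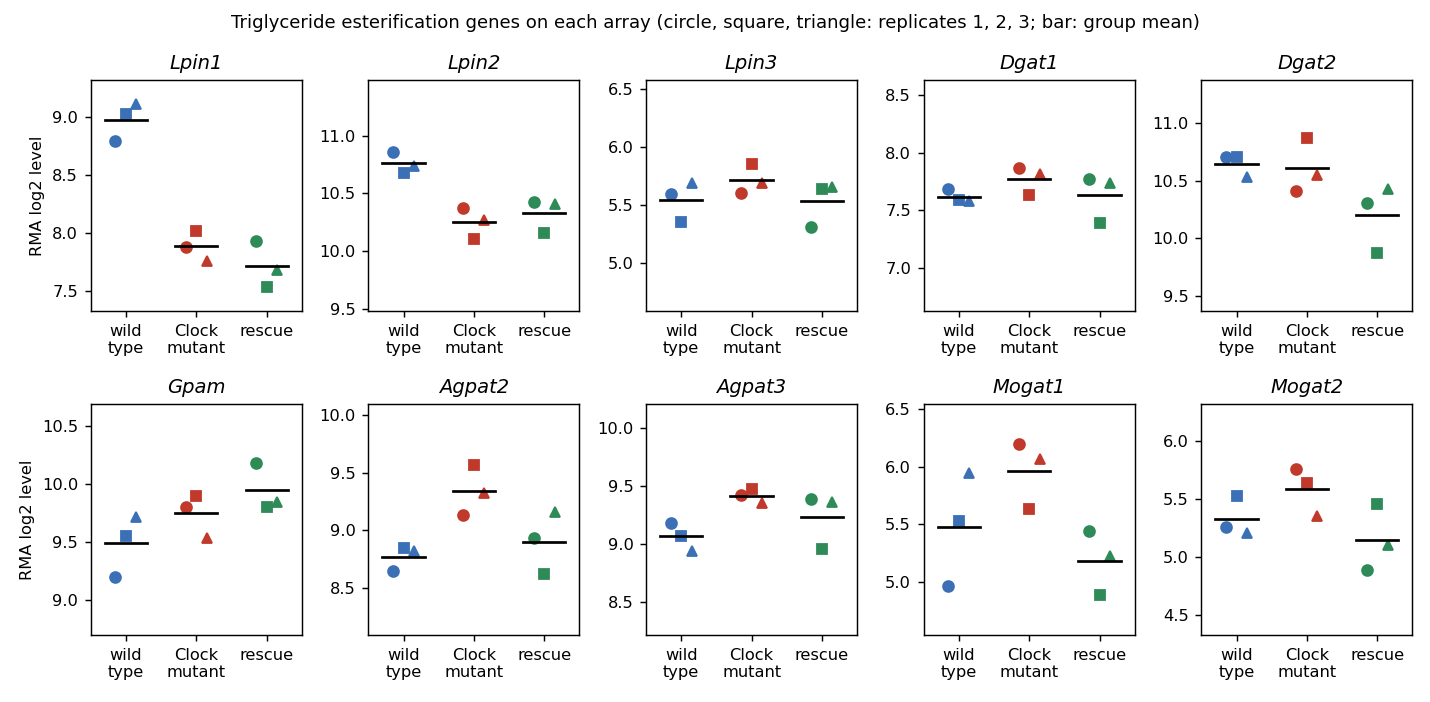
RMA log2 level of each of the 10 genes on every array, by group; each symbol is 1 mouse and the bar is the group mean, and every panel spans the same range of log2 units. Lpin1 and Lpin2 are higher on the 3 wild-type arrays than on any mutant or rescue array, and Agpat2 is higher on the 3 mutant arrays than on any wild-type array.

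These falls came in livers in which markers of other cell types were also lower. In units of 1000 of linear signal, 8 Kupffer cell markers, all measured, summed to 3.4 to 4.57 in wild type, 1.19 to 1.4 in mutant and 1.74 to 2.23 in rescue, and 5 of the 8 fell in mutant liver. For 8 liver endothelial markers the sums were 2.33 to 2.64, 1.52 to 1.68 and 1.83 to 2.26, and 4 fell in mutant liver; for 6 stellate cell markers they were 2.8 to 3.11, 2.02 to 2.18 and 2.59 to 2.87, and 3 fell. Hepatocyte markers, of which 9 of 10 were measured, summed to 38.4 to 43.5, 43.0 to 47.5 and 39.4 to 45.2, and 1 of the 9 rose. Over all genes, 9.02% fell and 6.37% rose in mutant liver. A linear sum leans on its brightest gene. Among Kupffer markers that was Vsig4 (mean log2 level 11.29, 9.15 and 10.25), and among stellate markers Dcn (10.97, 10.48 and 10.86). Clec4f, Marco and C1qa were not called in mutant liver (limma adjusted p 0.128, 0.14 and 0.738), nor were Des, Reln and Pdgfrb. Fewer cells of a type and less RNA per cell cannot be told apart in whole liver, and the part of these markers in the lipin differences was not tested. In rescue relative to mutant, 1 Kupffer, 2 endothelial and 3 stellate markers rose, where 2.61% of all genes did. Adipocyte markers (7 of 8 measured) summed to 0.512 to 0.532 in wild type, 0.519 to 0.570 in mutant and 0.551 to 0.579 in rescue. None of the 7 was called in mutant liver with limma (1, Plin1, at an unadjusted p under 0.05), Fabp4 rose in rescue relative to mutant, and Adipoq had mean log2 levels of 4.15, 4.14 and 4.17, inside the range of the olfactory receptor genes' medians. Exocrine pancreas markers (4 of 6 measured) summed to 0.261 to 0.308, 0.316 to 0.382 and 0.299 to 0.334, and 5 skeletal muscle markers to 0.308 to 0.315, 0.344 to 0.405 and 0.296 to 0.350, with 1 of each list higher in mutant by the test.

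The sequence before the transcription start is shown for the members called between mutant and wild type, because CLOCK acts through E-boxes and REV-ERB and ROR receptors through sites that hold AGGTCA. The windows are the 250 bases before a RefSeq start (GRCm38.p6), written 5′ to 3′ on the gene's strand, with capitals marking CACGTG or AGGTCA on either strand. They are Lpin1 at chr12:16610967-16611216 on the minus strand, whose start lies inside the annotated gene, the first of 3 starts of Lpin2 at chr17:71183282-71183531 on the plus strand, and Agpat2 at chr2:26604418-26604667 on the minus strand.
Lpin1: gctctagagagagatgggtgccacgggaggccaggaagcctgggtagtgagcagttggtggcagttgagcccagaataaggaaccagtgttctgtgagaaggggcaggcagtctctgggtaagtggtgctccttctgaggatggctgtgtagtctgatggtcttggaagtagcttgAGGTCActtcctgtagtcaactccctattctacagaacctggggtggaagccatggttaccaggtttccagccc
Lpin2: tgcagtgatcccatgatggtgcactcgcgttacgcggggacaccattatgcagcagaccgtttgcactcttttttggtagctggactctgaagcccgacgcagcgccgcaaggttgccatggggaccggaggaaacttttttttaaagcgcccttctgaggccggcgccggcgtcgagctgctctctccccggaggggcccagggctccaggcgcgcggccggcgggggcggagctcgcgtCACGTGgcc
Agpat2: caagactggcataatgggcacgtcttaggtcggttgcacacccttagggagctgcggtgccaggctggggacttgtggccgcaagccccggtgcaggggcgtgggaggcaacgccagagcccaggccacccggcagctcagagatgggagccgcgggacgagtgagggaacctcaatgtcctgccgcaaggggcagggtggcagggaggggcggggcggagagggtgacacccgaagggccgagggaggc

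The RefSeq table held 11 such windows for 7 members (Lpin1, Lpin2, Lpin3, Gpam, Agpat2, Agpat3 and Mogat1). An E-box, CACGTG, occurred in 1 of the 11, against 6.02% of the 32851 windows of all genes. It was in 1 of 3 windows of Lpin2, with its first base at -9 from the start. The other Lpin2 windows had none. AGGTCA, searched on both strands as were all motifs, occurred in 2 of the 11, in Lpin1 with its first base at -74 and in 1 of 2 windows of Gpam at -196, against 14.02% of all windows. The related string CACGTT occurred in 1, that of Agpat3 at -25, against 3.85%. The D-box forms TTATGTAA and TTACGTAA (0.93% of all windows) and the SREBP element TCACNCCAC (1.05%) had no match in the 11. A match is a string of letters and not a bound site, and the absence of one concerns only these 250 bases.

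Of the 3 members that code for acyltransferases upstream of the lipins, Agpat2 rose in mutant liver and Agpat3 and Gpam did not pass. Agpat2 encodes an enzyme that turns lysophosphatidate into phosphatidate, and its loss causes lipodystrophy in mice and humans. It read 8.65, 8.85 and 8.82 in wild type, 9.14, 9.56 and 9.33 in mutant and 8.93, 8.62 and 9.16 in rescue. Mutant and wild-type values did not overlap, while the rescue values overlapped both. Agpat2 rose by 0.57 ± 0.14 in mutant liver, or 1.49-fold (interval 0.27 to 0.88, limma adjusted p = 0.0149, n = 3 per group), and this call was lost without Clock mutant replicate 2 (0.46, adjusted p = 0.0626) or without wild type replicate 1 (0.51, adjusted p = 0.0574). The difference of rescue minus mutant was -0.44 ± 0.14 (interval -0.74 to -0.14, adjusted p = 0.0981), and rescue minus wild type was 0.13 ± 0.14 (interval -0.17 to 0.44, adjusted p = 0.774).

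Agpat3, whose enzyme does the same step with a preference for polyunsaturated acyl chains, read 9.18, 9.07 and 8.94 in wild type, 9.42, 9.48 and 9.36 in mutant and 9.39, 8.96 and 9.37 in rescue. It too was higher on every mutant array than on any wild-type array, by 0.35 ± 0.12, but did not pass (interval 0.09 to 0.62, limma adjusted p = 0.0696); it passed in 6 of 19 alternative analyses, among them quantile normalization repeated (0.45, adjusted p = 0.0157). For Agpat3, rescue minus mutant was -0.18 ± 0.12 (adjusted p = 0.427). Gpam encodes the mitochondrial enzyme that acylates glycerol 3-phosphate first. It read 9.20, 9.55 and 9.71 in wild type, 9.81, 9.90 and 9.54 in mutant and 10.19, 9.80 and 9.85 in rescue. The rescue values lay above all wild-type values, and the mutant values overlapped both groups. Rescue minus wild type was 0.46 ± 0.15 (interval 0.14 to 0.78, adjusted p = 0.143), and mutant minus wild type was 0.26 ± 0.15 (interval -0.06 to 0.58, adjusted p = 0.249); neither passed. Without wild type replicate 1, the lowest, mutant minus wild type was 0.12 for Gpam.

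No difference of the 2 DGAT genes passed in any comparison with limma. Dgat1 encodes an acyltransferase of the endoplasmic reticulum linked to re-esterification of fatty acids from outside the cell. It read 7.69, 7.59 and 7.58 in wild type, 7.87, 7.64 and 7.82 in mutant and 7.78, 7.39 and 7.74 in rescue, with all groups overlapping. Its differences were 0.16 ± 0.12 for mutant minus wild type (interval -0.10 to 0.41, adjusted p = 0.399) and -0.14 ± 0.12 for rescue minus mutant (interval -0.40 to 0.11, adjusted p = 0.524). Dgat2, from an unrelated protein family and linked to newly made fatty acids, read 10.70, 10.70 and 10.54 in wild type, 10.41, 10.87 and 10.55 in mutant and 10.30, 9.88 and 10.43 in rescue. Every rescue value lay below every wild-type value, and mutant overlapped both. The differences were -0.04 ± 0.15 for mutant minus wild type (interval -0.36 to 0.28, adjusted p = 0.882), -0.40 ± 0.15 for rescue minus mutant (interval -0.72 to -0.09, adjusted p = 0.138) and -0.44 ± 0.15 for rescue minus wild type (interval -0.76 to -0.13, adjusted p = 0.161).

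The monoacylglycerol acyltransferase genes were dim. Mogat1, which is known to rise in fatty mouse liver, read 4.96, 5.53 and 5.94 in wild type, 6.19, 5.63 and 6.07 in mutant and 5.44, 4.89 and 5.23 in rescue. The wild-type values spread over nearly the whole range, and every rescue value lay below every mutant value. In Mogat1, rescue minus mutant was -0.78 ± 0.21, the largest difference of any member in that comparison, a 1.72-fold lower level (interval -1.24 to -0.32, limma adjusted p = 0.0564); it did not pass, and passed in 5 of 18 alternative analyses (lowest 0.0222, with array weights). Mutant minus wild type was 0.49 ± 0.21 (interval 0.03 to 0.95, adjusted p = 0.139). That value rested on single wild-type mice: it was 0.23 without wild type replicate 1 (limma adjusted p = 0.471) and 0.72 without wild type replicate 3 (0.0445), and it also passed with array weights (0.61, 0.0449). Mogat2, the form known from the small intestine, read 5.26, 5.52 and 5.21 in wild type, 5.76, 5.64 and 5.35 in mutant and 4.89, 5.45 and 5.10 in rescue, with overlap between all groups. Rescue minus mutant was -0.44 ± 0.15 (interval -0.76 to -0.12, adjusted p = 0.114). Every Mogat2 value and 6 of 9 Mogat1 values lay below the 95th percentile of the olfactory receptor genes on the same array, so the size of these differences is uncertain. Markers of small intestine epithelium, all 7 measured, summed to 6.95 to 8.54, 6.99 to 8.25 and 7.78 to 8.18 in units of 1000, with none called by limma in any comparison (0 at an unadjusted p under 0.05). Those sums are mostly Fabp2, which liver also expresses (log2 level 12.59 to 12.88). Of all genes, 15.4% were called for mutant against wild type, 3.81% for rescue against mutant and 2.28% for rescue against wild type. Sis, a defining gene of intestinal epithelium, read 5.96 (log2) on the array of wild type replicate 3 and 3.03 to 3.43 on the other 8. Cdh17, Vil1, Alpi and Apoa4 were also highest on that array, while Fabp2 and Lct were not. The same array held the highest wild-type value of Mogat1 (5.94) and the lowest of Mogat2 (5.21). Whether intestinal tissue had a part in these values was not tested.

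**Figure D2:**
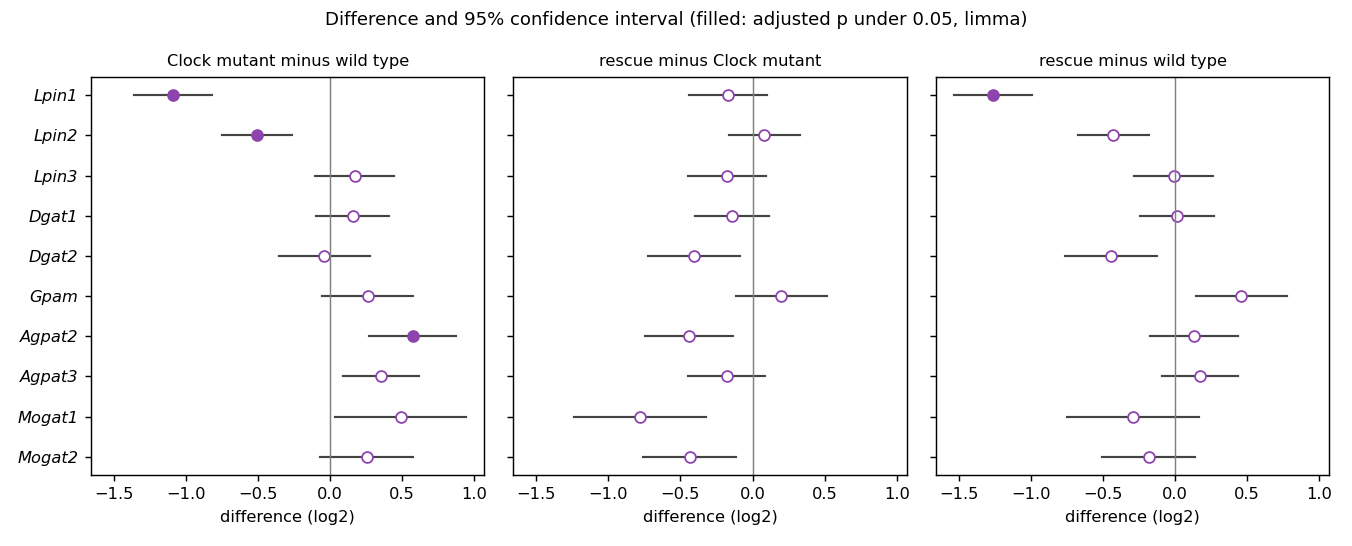
Difference in log2 level (x axis) of each member in the 3 comparisons, with its 95% confidence interval from limma; filled points have an adjusted p under 0.05. Lpin1, Lpin2 and Agpat2 are filled for mutant minus wild type, no member is for rescue minus mutant, and only Lpin1 is for rescue minus wild type.

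Counted together, 3 of the 10 members were called between mutant and wild type, where 15.4% of all genes were, with 2 lower (9.02% of all genes) and 1 higher (6.37%). The split of all called genes, 1270 higher and 1798 lower, moved to 610 and 2272 with each array centred on its median, and Lpin1, Lpin2 and Agpat2 were called in the same directions in that setting. At an unadjusted p under 0.05 there were 5 of 10 (30.7% of all genes), 3 higher (16.9%) and 2 lower (13.8%). Non-overlapping values were seen for 4 members (35.7% of all genes), Agpat2 and Agpat3 higher (20.3%) and Lpin1 and Lpin2 lower (15.4%), so that this count was close to the background.

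Between rescue and mutant 0 of 10 members were called by limma, where 3.81% of all genes were (2.61% higher and 1.2% lower, or 520 and 239 genes, which moved to 780 and 126 with median centring). At an unadjusted p under 0.05, 4 members differed (21.1% of all genes). All 4 were lower in rescue, Dgat2, Agpat2, Mogat1 and Mogat2 (11.4%), and none was higher (9.65%). Values did not overlap for 1 member (25.7%), Mogat1, which was lower (14% of all genes lower, 11.8% higher). Between rescue and wild type 1 of 10 was called, Lpin1, where 2.28% of all genes were (1.35% lower, 0.928% higher). At an unadjusted p under 0.05, 4 members differed (14.2%), Lpin1, Lpin2 and Dgat2 lower (7.86%) and Gpam higher (6.38%), and the same 4 were those without overlap (19.5%; 10.5% lower, 8.95% higher). The median difference of the members was 0.21 for mutant minus wild type, -0.18 for rescue minus mutant and -0.10 for rescue minus wild type, beside 0.07, -0.05 and 0.01 over all genes.

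Enzymes of the same step were also set against each other within each array, which removes a shift common to all genes of the array but not a scaling that depends on the level. A change in such a difference shows that the 2 genes changed unequally, and says nothing of which is more abundant. Lpin1 minus Lpin2 was -1.78 ± 0.25 (SD, n = 3) in wild type, -2.36 ± 0.24 in mutant and -2.62 ± 0.12 in rescue. Its array values were -2.07, -1.65 and -1.62 in wild type and -2.49, -2.08 and -2.51 in mutant. The 3 groups differed (exact permutation test of the F ratio over 1680 arrangements, p = 0.00714, adjusted over 4 pairs p = 0.0286, smallest p possible 0.00357). The margin was narrow: the adjusted p was above 0.05 without 7 of the 9 arrays, left out one at a time (range over all 9 from 0.0429 to 0.171, with values of mutant minus wild type from -0.73 to -0.50).

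Dgat1 minus Dgat2 was -3.03 ± 0.08 in wild type, -2.83 ± 0.36 in mutant and -2.57 ± 0.11 in rescue (SD, n = 3; exact permutation p = 0.125, adjusted p = 0.25). The rescue values of -2.53, -2.49 and -2.69 all lay above the wild-type values of -3.01, -3.12 and -2.95. The mutant spread came from replicate 2 at -3.23, and without Clock mutant replicate 2 the adjusted exact p was 0.0429, with mutant minus wild type at 0.39 in place of 0.20. Neither Agpat2 minus Agpat3 (exact permutation p = 0.246, adjusted p = 0.329) nor Mogat1 minus Mogat2 (exact p = 0.696, adjusted p = 0.696) passed.

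**Figure D3:**
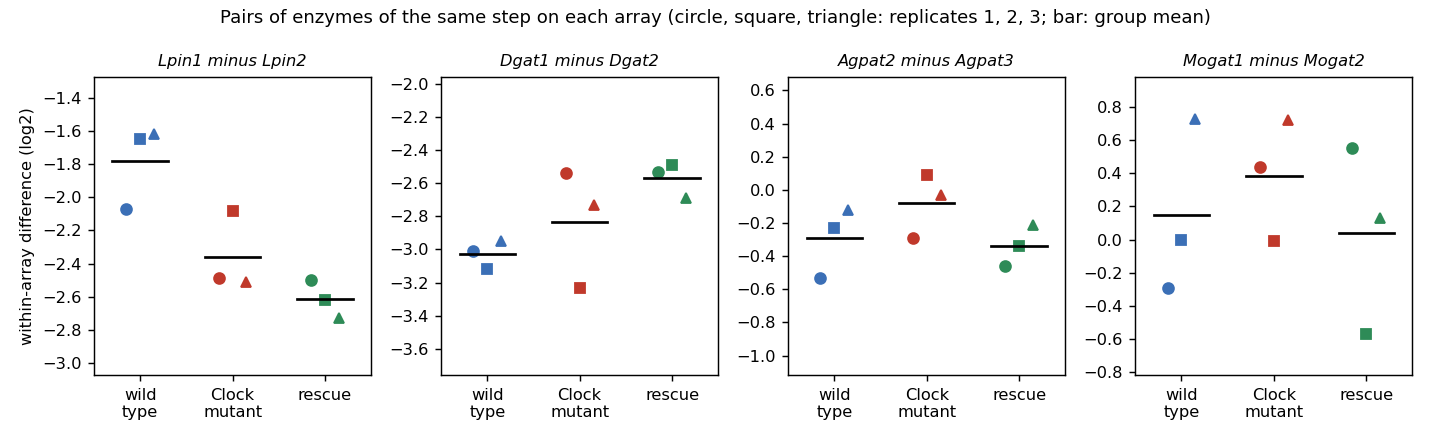
Difference in log2 level between enzymes of the same step within each array (y axis), by group; each symbol is 1 mouse and the bar is the group mean. Lpin1 minus Lpin2 is lowest in rescue at -2.62 and highest in wild type at -1.78, and Mogat1 minus Mogat2 scatters widely in all groups.

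Among the rescue mice, replicate 2 had the lowest value for 8 of the 10 members, all but Lpin3 and Mogat2. Over all genes that mouse was the lowest of its group in 33.1%, and over genes outside the dimmest 40% in 42.8%. Without rescue replicate 2, rescue minus mutant was -0.30 for Agpat2 (adjusted p = 0.261) in place of -0.44, -0.24 for Dgat2 (0.356) in place of -0.40 and -0.63 for Mogat1 (0.17) in place of -0.78, all from limma. For Lpin1, rescue minus wild type was -1.17 without it (limma adjusted p = 8.26e-04). Its dose of plasmid and delivery are not given apart from those of the other rescue mice.

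The other genes of the same pathway mostly did not pass, as was so for genes in general. Of 25 listed enzymes 22 were measured; Gk, Acsl1 and Acsl3 were not analysed here. Between mutant and wild type 1 of the 22 fell and none rose with limma (3 higher and 2 lower at an unadjusted p under 0.05), between rescue and mutant 1 fell and none rose (1 and 1), and between rescue and wild type 1 rose and none fell (1 and 2). Over all genes, 6.37% rose and 9.02% fell between mutant and wild type (16.9% and 13.8% at an unadjusted p under 0.05). Between rescue and mutant these shares were 2.61% and 1.2% (9.65% and 11.4%). Between rescue and wild type they were 0.928% and 1.35% (6.38% and 7.86%). The median difference of the 22 was 0.08, -0.01 and 0.05 in the 3 comparisons, beside 0.07, -0.05 and 0.01 over all genes.

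The enzyme that fell in mutant liver was Agpat5, of the same acyltransferase family as Agpat2. It read 6.73, 6.95 and 7.10 in wild type, 6.20, 6.43 and 6.44 in mutant and 6.59, 6.53 and 6.67 in rescue, and fell by 0.57 ± 0.12 (limma adjusted p = 0.00463, n = 3 per group), while Agpat2 rose by 0.57. The rescue values lay between those of the other groups without overlap, at 0.24 ± 0.12 above mutant (adjusted p = 0.256). Gpat4, which encodes the main glycerol 3-phosphate acyltransferase of the endoplasmic reticulum in liver, read 9.86, 9.42 and 9.70 in mutant and 9.08, 8.88 and 8.96 in rescue, and 9.46, 9.10 and 9.27 in wild type. Mutant minus wild type was 0.38 ± 0.13 for Gpat4 and did not pass (limma adjusted p = 0.0611), but it passed in 7 of 19 alternatives, which included the replicate block (0.0199) and a repeated quantile normalization (0.49, 0.0111). Gpat4 was the enzyme that fell in rescue relative to mutant, by 0.68 ± 0.13 (adjusted p = 0.0139, limma), a call lost without Clock mutant replicate 1 (-0.58, adjusted p = 0.062), rescue replicate 2 (-0.64, 0.0573) or rescue replicate 3 (-0.68, 0.0529). Gpam, for the same step in mitochondria, was 0.20 ± 0.15 higher in that comparison and did not pass.

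Gpd1, which makes glycerol 3-phosphate from a glycolytic intermediate, was the enzyme that rose in rescue relative to wild type, by 0.62 ± 0.15 (limma adjusted p = 0.0462, n = 3 per group). It read 7.83, 7.63 and 8.0 in wild type, 7.78, 8.41 and 8.34 in mutant and 8.37, 8.41 and 8.54 in rescue. The call was lost in 9 settings, with adjusted p from 0.0509 to 0.166, which included leaving out each wild-type or rescue array. Gpd1 was also 0.36 ± 0.15 higher in mutant than in wild type, which did not pass (limma adjusted p = 0.126). That difference passed without Clock mutant replicate 1 (0.555, 0.016). Rescue minus mutant was 0.26 ± 0.15 for Gpd1 (adjusted p = 0.339), so the rise was not particular to rescue by these tests. None of 10 measured genes for other fates of phosphatidate and diacylglycerol was called in any comparison with limma, nor any of 3 acyl-CoA synthetase genes. At an unadjusted p under 0.05, 1 of the 10 differed for mutant minus wild type, where 30.7% of all genes did. At that threshold 1 of the 3, Acsl4, differed for rescue minus mutant, where 21.1% of all genes did. Its mutant values ran from 8.38 (replicate 1) to 9.70. Acsl4 was called for mutant minus wild type without Clock mutant replicate 2 (-0.77, limma adjusted p = 0.0361). With array weights it was called for rescue minus mutant (0.76, 0.0499).

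Among 6 genes for the lipin phosphatase and the nuclear partners of lipin 1, Ppargc1a fell in mutant liver and no other passed. Over all genes, 9.02% fell in that comparison. At an unadjusted p under 0.05, 3 of the 6 were lower, as were 13.8% of all genes. Ppargc1a encodes PGC-1α, a coactivator known to raise Lpin1 in liver. It read 8.90, 8.90 and 9.07 in wild type, 8.58, 8.68 and 8.48 in mutant and 9.07, 8.86 and 8.99 in rescue. It fell by 0.38 ± 0.11 in mutant (limma adjusted p = 0.0272, n = 3 per group), a call lost with quantile normalization repeated (0.0893) and without Clock mutant replicate 1 (0.0693) or 3 (0.0967) or wild type replicate 3 (0.111). Rescue minus mutant was 0.40 ± 0.11 (adjusted p = 0.0507, which passed in 6 alternatives, lowest 0.019) and rescue minus wild type 0.02 ± 0.11 (interval -0.21 to 0.25, adjusted p = 0.966). Ctdnep1, a catalytic subunit of the phosphatase that acts on lipins, was 0.39 ± 0.11 higher in rescue than in mutant (adjusted p = 0.0728), and its partner Cnep1r1 was -0.33 ± 0.12 in mutant relative to wild type (adjusted p = 0.0726); neither passed, though Ctdnep1 did in 5 alternatives (lowest 0.0252) and Cnep1r1 in 4 (lowest 0.0325). Ppargc1b was -0.45 ± 0.20 in mutant relative to wild type, the largest fall of the 6, without overlap (limma adjusted p = 0.139). It did not pass, but it did with only the 6 arrays compared (0.02) and without rescue replicate 2 (0.0127). Ppara itself was -0.22 ± 0.11 in mutant (adjusted p = 0.186).

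Genes that break triglyceride down are given for comparison. Pnpla2, the first triglyceride lipase, fell by 0.44 ± 0.14 in mutant liver (limma adjusted p = 0.0409, lost without any 1 of the 6 arrays compared, 0.0514 to 0.164, and with quantile normalization repeated, 0.0929), and G0s2, an inhibitor of that lipase, rose by 0.75 ± 0.22 (adjusted p = 0.0355, lost without 5 of those 6 arrays, 0.0741 to 0.134, and with median centring, the trended and robust prior or the span trend removed, 0.064 to 0.104). Mgll, whose enzyme uses up the monoacylglycerol that MOGAT enzymes need, fell by 0.47 ± 0.11 in rescue relative to mutant (adjusted p = 0.0354, lost without 5 of the 6 arrays compared, 0.0612 to 0.118, with median centring, 0.0606, and with only those 6 arrays, 0.056).

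**Figure D4:**
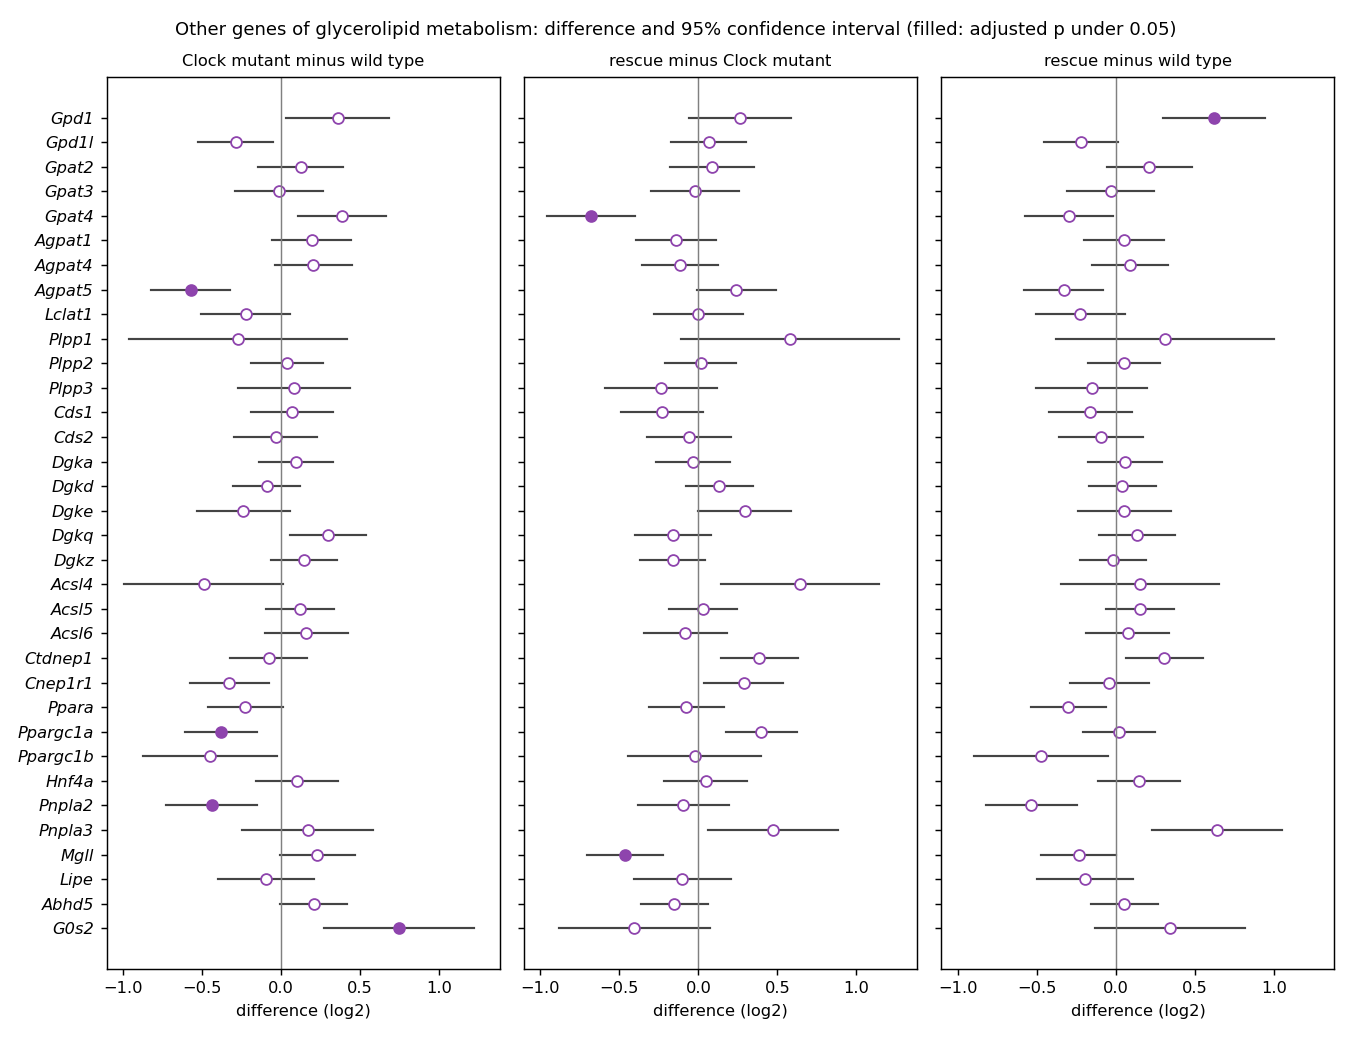
Difference in log2 level (x axis) of the other measured genes of glycerolipid metabolism in the 3 comparisons, with 95% confidence intervals from limma; filled points have an adjusted p under 0.05. Agpat5, Ppargc1a, Pnpla2 and G0s2 are filled for mutant minus wild type, Gpat4 and Mgll for rescue minus mutant, and Gpd1 for rescue minus wild type.

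The genes whose profile over the 9 arrays was nearest to a called member were found by the root mean square difference of gene-centred log2 values. For Lpin1 they were Slc16a12, a transporter gene (0.193), Noct, which encodes the rhythmic protein nocturnin (0.197), and Nmrk1, which encodes a nicotinamide riboside kinase (0.200). They were chosen for nearness to Lpin1 on these same arrays, so a pattern shared with it follows from the choice. Each was lower on all mutant and rescue arrays than on any wild-type array. Noct read 7.44, 7.63 and 7.22 in wild type, 6.70, 6.68 and 6.47 in mutant and 6.44, 6.23 and 6.42 in rescue. For Lpin2 they were Stx12 (0.065), Ube4b (0.070) and Stradb (0.071), and for Agpat2 they were Sec14l2 (0.103), Nsmf (0.106) and Ampd2 (0.108). A smaller difference is easier to reach for a gene that varies less, so these values do not rank the 3 members.

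**Figure D5:**
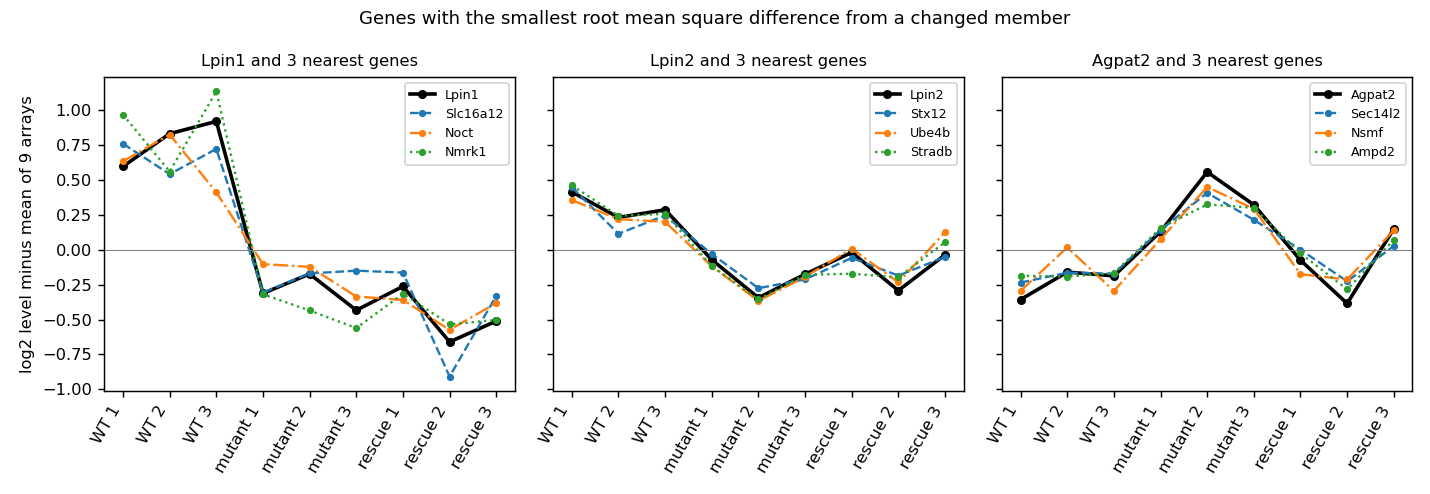
Log2 level minus the mean of the 9 arrays (y axis) for Lpin1, Lpin2 and Agpat2, each with the 3 genes nearest to it, over the single arrays (x axis). Lpin1 and its 3 nearest genes are above their mean on the wild-type arrays and below it on all mutant and rescue arrays. The likeness follows from choosing the genes on these same arrays.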

How the data were processed

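Liver RNA of 9 mice, 3 per group by the labels, was measured on Affymetrix arrays. The deposited log2 levels per probe set were made by the authors with RMA in Affymetrix Expression Console, per the submitters' processing notes; RMA can compress differences between dim genes. Values ran from -0.46 to 13.86. Of 35556 probe sets, 21789 had 1 gene symbol in the platform annotation, 1621 several and 12146 none, and the brightest probe set stood for each of 19938 genes.

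The 9 arrays were fitted together with limma 3.58.1 (R 4.3.3; 6 residual and 8.475 prior degrees of freedom), with Benjamini-Hochberg adjustment over all genes in each comparison and calls at an adjusted p under 0.05. Intervals are 95%, unadjusted. On simulated data for mutant minus wild type, 54% of changes of 0.5 (log2) and 100% of changes of 1 were called, and 15 of 169 calls were false. The simulation had independent noise per gene and far fewer changed genes than the 3068 called in the data. Its shares therefore need not hold for the reported comparisons. Enzyme pairs were compared by exact permutation in Python 3.11.15. Named genes are the members, called genes of 6 fixed lists of related genes, Clock, markers, and for each called member its 3 nearest genes without predicted ones. Some uncalled genes of those lists are also named, and these were not picked by a fixed rule of p. Promoters are RefSeq's (GRCm38.p6). The members and lists were chosen with earlier results of these data known. Alternatives changed the replicate block, filter, scaling, prior, array weights, probe set choice and a trend with gene span, or left out single arrays.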

Additional observations from a re-analysis of the deposited data

How the results depend on the processing

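Over 19 alternative analyses, Lpin1 and Lpin2 in mutant against wild type and Lpin1 in rescue against wild type were called in all. Some of the 19 settings could not move a member's difference itself, only its error and adjustment. Among these were the probe set settings, since each member has 1 probe set, and leaving out an array of the group not compared. Of 561 differences of members under alternatives, 2 lost a call (both Agpat2, as given above), 16 gained one (Agpat3, Mogat1 and Lpin2) and no called difference changed sign; 12 uncalled ones near 0 (Dgat1, Dgat2 and Lpin3) did. The number of members called in mutant against wild type was 2 to 4 over the alternatives. In rescue against mutant 1 member, Mogat1, was called in place of 0 with the replicate block (adjusted p = 0.0481), with array weights and with only the 6 arrays compared, and 0 to 1 without single arrays. In rescue against wild type 2 were called in place of 1, Lpin2 being added, with the replicate block (adjusted p = 0.0375), without the dimmest 40% of genes and with the trended and robust prior. Counts over all genes, 3068, 759 and 454 in the 3 comparisons, ranged without single arrays from 1695 (without wild type replicate 3) to 3130, from 200 (without Clock mutant replicate 1) to 692, and from 233 (without wild type replicate 3) to 501. For rescue against mutant the count was 1178 without the dimmest genes, 1210 with the trended and robust prior and 1334 with array weights; for rescue against wild type it was 711 without the dimmest genes and 704 with that prior. Lpin1 minus Lpin2 lost its call with quantile normalization repeated (-0.57, adjusted exact p = 0.0571) and ranged from -0.73 to -0.50 without single arrays; Dgat1 minus Dgat2 ranged from 0.046 to 0.39. With the replicate block Lpin1 minus Lpin2 was -0.58 (adjusted exact p = 0.111); there the unadjusted p cannot go below 0.0278, which for a single pair among 4 is 0.111 after adjustment, so that setting says nothing about its stability. The causes were not tested. Same-numbered arrays of different groups deviated together with correlations across genes of -0.111 to 0.191, beside -0.256 to 0.179 for arrays of different numbers. These ranges overlap, and the replicate numbers were not taken as pairs in the main fit. With the replicate block 3368, 931 and 507 genes were called in the 3 comparisons. The block changed no other call of a member (Clock and Gpat4 are given above). Lpin3, Mogat1 and Mogat2 are among the dimmest 40% of genes, so they had no value without those genes, and small differences of them could have been missed.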
